A study of Mus musculus with 9 samples.

Results

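The genes followed here act in blood clotting and clot breakdown. *Plat*, *Plau*, *Plaur*, *Thbd*, *F3*, *Vwf*, *Procr*, *Tfpi* and *Pros1* were measured in 9 libraries of mouse brain RNA. They were taken by symbol from the table of read counts, where they are 9 of 20731 genes, and all 9 passed the filter on low counts that left 14746 genes for testing. The RNA came from male C57BL/6J mice 8 to 10 weeks old on day 2 after cerebral venous sinus thrombosis (CVST), induced in the superior sagittal sinus. Every mouse therefore carried a thrombus, and no sham library was analysed here. The CVST group (3 mice) had thrombosis alone. In the CVST+Ligation group (3 mice) the deep cervical lymph nodes, into which meningeal lymph drains, were tied off as well. The deep nodes are named by the methods, and ligation on both sides, of cervical nodes, by the description of the data set. The 4-PBA group (3 mice) had the thrombosis, the ligation and 4-phenylbutyric acid (4-PBA), a chemical chaperone that relieves endoplasmic reticulum stress, given into the peritoneum at 100 mg/kg. The methods place this injection 30 min before modelling, and the description of the data set places it after ligation. The methods give solvent to a Control group, which was not analysed here, and do not say what the 2 groups without 4-PBA were injected with.

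Clotting in a vessel starts when tissue factor, encoded by *F3*, meets plasma factor VII, and ends in thrombin, which turns fibrinogen into fibrin. Endothelial cells hold this in check with tissue factor pathway inhibitor, with thrombomodulin and the endothelial protein C receptor, which together turn thrombin into an activator of protein C, and with protein S, the cofactor of activated protein C. Fibrin is cut by plasmin, which the tissue-type and urokinase-type plasminogen activators make from plasminogen. In brain, astrocytes are a known source of tissue factor, and neurons and vessels of tissue-type activator.

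The genes lie on chromosomes 2 (*Tfpi*, *Thbd* and *Procr*), 3 (*F3*), 6 (*Vwf*), 7 (*Plaur*), 8 (*Plat*), 14 (*Plau*) and 16 (*Pros1*) of GRCm38. In the GENCODE annotation each is protein coding and 0 other genes overlap any of them, so their counts do not share a locus with a neighbour. Between 18100739 and 25091498 reads per library were assigned to genes, and 3 reads equal 0.114 to 0.163 CPM (counts scaled to library size). The lowest count of any of the 9 genes was 14, for *Procr*.

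The labels name the tissue as brain and the design text as cortex, but the libraries differed in the brain regions they held, which bears on every comparison below. Markers of the hypothalamus summed to 3.21 to 5.43 FPKM (reads scaled to library size and gene length) in the CVST group, 3.88 to 39.9 in CVST+Ligation and 573 to 975 in 4-PBA, and all 6 that could be tested were higher in 4-PBA than in either other group at an unadjusted p below 0.05. Markers of midbrain dopamine neurons summed to 11.7 to 12.5, 105 to 140 and 146 to 154 FPKM in the same order, and those of the thalamus to 32.8 to 82.9, 176 to 563 and 286 to 481. Cortical markers summed to 398 to 621, 162 to 315 and 127 to 234 FPKM, and striatal markers to 1240 to 2040, 228 to 598 and 295 to 1480. Choroid plexus markers summed to 1760 to 2090 FPKM in CVST, 24.7 to 1860 in CVST+Ligation and 1010 to 7050 in 4-PBA. The library CVST+Ligation 2 held cerebellar markers at 1360 FPKM, against 153 to 315 in the others. All 14 markers of brain endothelial cells were present in every library and summed to 367 to 490, 346 to 537 and 483 to 491 FPKM, and in no comparison did edgeR give 1 of the 14 an unadjusted p below 0.05. Microglial markers summed to 703 to 806, 553 to 590 and 547 to 753 FPKM, and 4 of 9 were lower in CVST+Ligation than in CVST at an unadjusted p below 0.05. Oligodendrocyte markers summed to 2330 to 3020 FPKM in CVST, 2460 to 5540 in CVST+Ligation and 4620 to 7150 in 4-PBA, and 4 of 6 were higher in 4-PBA than in CVST at an unadjusted p below 0.05. Markers of meningeal fibroblasts summed to 46 to 91.3, 75.7 to 163 and 88.5 to 239 FPKM, and 1 of 7 was higher in 4-PBA than in CVST by the same measure. Markers of platelets (4.21 to 12.6 FPKM) and of blood myeloid cells (3.3 to 35.4 FPKM) were low throughout, with up to 2 of 6 and up to 3 of 8 at 0 in a library. Red blood cell markers summed to 340 to 417 FPKM in CVST, 332 to 763 in CVST+Ligation and 395 to 479 in 4-PBA. Astrocyte markers summed to 1350 to 2260, 1730 to 3000 and 1810 to 2810 FPKM. Of these 2 lists, 2 of 5 and 3 of 8 were higher in CVST+Ligation than in CVST at an unadjusted p below 0.05. The part of these differences in the results was not tested. In whole tissue, fewer cells of a type and less RNA per cell cannot be told apart.

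Per unit of length, *F3* and *Plat* stood above the other 7 genes. *F3* had 62.5 ± 9.27 FPKM and *Plat* 49.2 ± 12.8 FPKM (mean ± SD, n = 9), and together they made up 61.1 to 78.6% of the summed FPKM of the 9 genes in a library. Their own ranges overlapped, from 48.1 to 78.6 FPKM for *F3* and from 29.3 to 66.8 FPKM for *Plat*. *Pros1* followed at 16.0 ± 5.18 FPKM, with its highest library, 27.2 FPKM, under the lowest one of *Plat*. Below it came *Vwf* at 7.63 ± 2.6, *Thbd* at 7.45 ± 2.59 and *Tfpi* at 5.59 ± 1.18 FPKM. The lowest levels were those of *Plaur* (4.23 ± 2.90), *Plau* (4.04 ± 2.16) and *Procr* (2.19 ± 1.11 FPKM). From *Pros1* downwards, each gene overlapped the next one in the order. The lengths used are mostly coding lengths, 1680 bases for *Plat* and 2020 for *Pros1*, where all annotated exons cover 6241 and 4088 bases. The order of genes and the ratios between genes, here and below, depend on that choice of length.

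**Figure D1:**
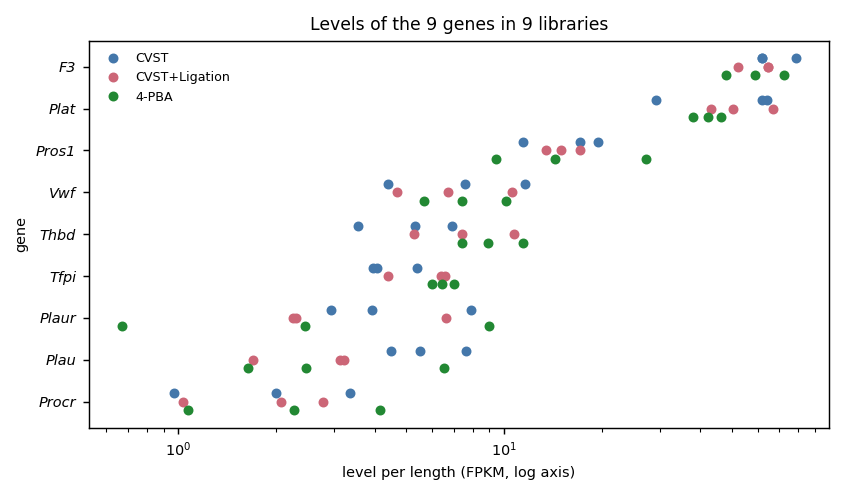
Level per length of each gene (FPKM, log axis) in the 9 libraries, coloured by group, with genes ordered by their mean. *F3* and *Plat* lie at 29.3 FPKM or more in every library, while *Plaur* runs from 0.673 to 9 FPKM, the widest range of the 9.

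The 3 groups were first compared in a single test across all groups with edgeR's quasi-likelihood model. No gene of the 9 had an unadjusted p below 0.05, against 11.1% of all genes tested, and none had a Benjamini-Hochberg adjusted p below 0.05, against 0.0339%. DESeq2 also gave 0 of 9 at either threshold. The smallest adjusted values were those of *Plau* (adjusted p = 0.536) and *Thbd* (adjusted p = 0.544). The pairwise comparisons below share groups with each other, so that a low CVST library, for example, enters 2 of them.

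Lymph node ligation was compared with thrombosis alone in the first pair of groups. At an unadjusted p below 0.05 it gave 1 of the 9 genes, *Plau*, which was lower. The background of all tested genes was 9.64%, with 5.47% higher and 4.18% lower. After adjustment 0 of 9 passed with edgeR, DESeq2 or limma, against 0.0203% of all genes. The median log2 fold change of the 9 genes was -0.14, beside 0 over all tested genes. Of the 9, 3 had a positive and 6 a negative log2 fold change.

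*Plau* encodes urokinase, the plasminogen activator that works at cell surfaces. It had 10.4, 7.32 and 6.24 CPM in the CVST libraries 1 to 3, 2.23, 4.02 and 4.4 CPM in CVST+Ligation, and 2.11, 3.24 and 8.31 CPM in 4-PBA. Every CVST+Ligation library thus lay under every CVST library, and the 4-PBA group reached from the lowest value of all to the second highest. Its level in CVST+Ligation was 0.444 times that in CVST (95% interval 0.206 to 0.955), a log2 fold change of -1.17 with an SE of 0.49 (adjusted p = 0.497). Ranges without overlap were found for 13.8% of all genes in this comparison, and for 7.21% in the lower direction. The unadjusted p was above 0.05 without CVST 1 (log2 fold change -0.94), CVST 2 (-1.23), CVST+Ligation 1 (-0.93) or CVST+Ligation 2 (-1.27). The log2 fold change stayed between -1.36 and -0.91 under all 15 alternatives. Microglial markers, which were also lower in CVST+Ligation, had a Pearson r of 0.71 with *Plau* over the 9 libraries (mean log2 CPM of the list). Markers of midbrain dopamine neurons had r = -0.69 with *Plau* and cortical markers r = 0.64. Whether any of these lists account for the difference was not tested.

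*Plaur*, the urokinase receptor that holds the enzyme on the cell surface, had 9.99, 3.64 and 5.1 CPM in CVST, 2.77, 2.73 and 8.35 CPM in CVST+Ligation, and 0.813, 2.99 and 10.6 CPM in 4-PBA. In each group 1 library, CVST 1, CVST+Ligation 3 and 4-PBA 3, stood well above the other 2, and the groups overlapped in all 3 comparisons. The log2 fold change of CVST+Ligation against CVST was -0.43 (95% interval -2.23 to 1.36, adjusted p = 0.875), an interval that reaches from 0.213 to 2.58 times the CVST level.

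*Plat*, tissue-type plasminogen activator, is the enzyme of clot lysis in vessels and is also secreted by neurons. Its levels were 110, 49.3 and 109 CPM in CVST, 84.5, 70.1 and 115 CPM in CVST+Ligation, and 62.6, 70.5 and 74.3 CPM in 4-PBA. The CVST group held both the lowest library and values near the top, while the 4-PBA libraries lay close together. CVST and CVST+Ligation had the same mean within error (89.7 ± 35.0 and 89.9 ± 23.0 CPM, n = 3 each), with a log2 fold change of 0.00 (95% interval -0.65 to 0.66, adjusted p = 0.997). Against CVST, the 4-PBA group had a log2 fold change of -0.37 (SE 0.29, adjusted p = 0.593), and the value without CVST 2 was -0.65 (adjusted p = 0.245, unadjusted p below 0.05). Over the 9 libraries *Plat* ran against the brain endothelial markers (r = -0.88), in contrast to *Vwf* (r = 0.77).

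*F3* encodes tissue factor, the trigger of clotting. It had 83.3, 63.9 and 67.2 CPM in CVST, 53.9, 64.9 and 68.5 CPM in CVST+Ligation, and 48.7, 60.5 and 71.3 CPM in 4-PBA. CVST 1 was the highest and 4-PBA 1 the lowest, and in between the 3 groups mixed. The intervals were narrow. The log2 fold change was -0.20 (95% interval -0.59 to 0.20) for CVST+Ligation against CVST and -0.25 (-0.64 to 0.15) for 4-PBA against CVST, with adjusted p of 0.727 and 0.547. *F3* was the gene with the smallest fold range among libraries but one, 1.71-fold from lowest to highest, after *Tfpi* with 1.65-fold.

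*Vwf* encodes von Willebrand factor, which endothelial cells store and release to catch platelets. It had 66.4, 99 and 39.5 CPM in CVST, 57.3, 87.8 and 41.1 CPM in CVST+Ligation, and 47.7, 63.2 and 82.3 CPM in 4-PBA. Each group held a low and a high library, and the group means of 68.3 ± 29.8, 62.1 ± 23.7 and 64.4 ± 17.3 CPM differed by less than their SD. The log2 fold changes were -0.14 (SE 0.36) for CVST+Ligation against CVST and -0.08 (SE 0.36) for 4-PBA against CVST, with adjusted p of 0.916 and 0.943.

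**Figure D2:**
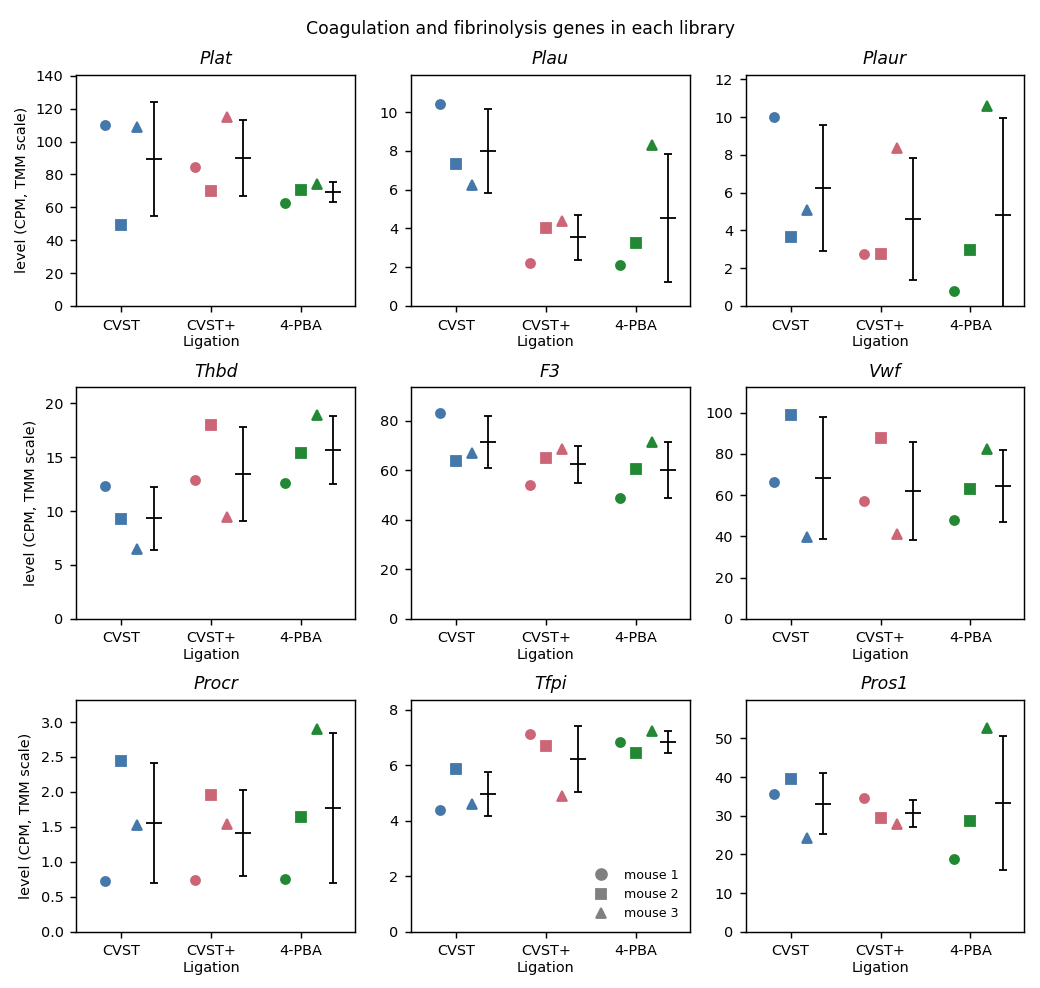
Level of each of the 9 genes (CPM on the TMM scale, axes from 0) by group, with 1 symbol shape per mouse number and the mean with SD of the 3 libraries to the right of each group. The CVST values of *Plau*, 6.24 to 10.4 CPM, lie above all 3 of CVST+Ligation, and the 4-PBA values of *Thbd* and *Tfpi* lie above all 3 of CVST.

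The 4-PBA group was then set against CVST+Ligation, both of which were ligated. Of the 9 genes, 0 fell below an unadjusted p of 0.05 in edgeR, DESeq2 or limma, where 3.23% of all genes did in edgeR (1.81% higher and 1.42% lower). This background was 10% without CVST+Ligation 2, the library with cerebellar markers, and 1.72% without 4-PBA 2, and the count of the 9 stayed at 0 in both. Ranges overlapped for all 9, against 7.73% of genes without overlap, and 0 of 9 passed after adjustment, as did 0% of all genes. Fold changes lay between -0.38 for *Plat* and 0.37 for *Plau* on the log2 scale, and every adjusted p was 1. The 95% intervals extended from the estimate by 0.39 for *F3* to 1.8 for *Plaur*. Of the estimates 7 were positive and 2 negative, with a median of 0.12, beside -0.02 over all genes. Without the library 4-PBA 3 the log2 fold change of *Plau* was -0.4, that of *Plaur* -1.26, that of *Procr* -0.22 and that of *Pros1* -0.37.

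The third pair, 4-PBA against CVST, differs in both ligation and drug. Of the 9 genes 1, *Thbd*, had an unadjusted p below 0.05 and was higher, against 15.4% of all genes (8.07% higher and 7.33% lower), a background that was 10.1% without 4-PBA 1. Groups without overlap were found for 2 of the 9, *Thbd* and *Tfpi*, both higher, beside 23.7% of all genes and 12.3% in that direction. After adjustment 0 of 9 passed with edgeR, DESeq2 or limma, against 0.122% of all genes. The median log2 fold change was -0.08, beside -0.01 over all genes.

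*Thbd* encodes thrombomodulin, the endothelial receptor that switches thrombin from clotting to protein C activation. It had 12.3, 9.22 and 6.46 CPM in CVST, 12.9, 18 and 9.41 CPM in CVST+Ligation, and 12.6, 15.4 and 18.9 CPM in 4-PBA. All 3 libraries of 4-PBA were above the highest of CVST, by a small margin in 4-PBA 1, while CVST+Ligation spanned both. The level in 4-PBA was 1.68 times that in CVST (95% interval 1.04 to 2.70), a log2 fold change of 0.74 with an SE of 0.31 (adjusted p = 0.285). Without CVST 2 (log2 fold change 0.75), CVST 3 (0.52), 4-PBA 2 (0.76) or 4-PBA 3 (0.58) the unadjusted p rose above 0.05, and the log2 fold change ranged from 0.52 to 1.01 over the 15 alternatives. For CVST+Ligation against CVST it was 0.52 (SE 0.31, adjusted p = 0.608), with an unadjusted p below 0.05 without CVST+Ligation 3 (0.72) or CVST 1 (0.77). Pericyte and smooth muscle markers had r = 0.78 with *Thbd* over the libraries and summed to 162 to 264 FPKM in CVST, 182 to 362 in CVST+Ligation and 270 to 315 in 4-PBA, with 3 of 9 higher in 4-PBA than in CVST at an unadjusted p below 0.05. Meningeal fibroblast and oligodendrocyte markers had r = 0.57 and r = 0.40 with *Thbd*. Those of platelets had 0.69, of the thalamus 0.68, of brain endothelial cells 0.67, of midbrain dopamine neurons 0.65 and of the cortex -0.64. By an unadjusted p below 0.05, 6 of 7 thalamic and 7 of 7 midbrain markers were higher in 4-PBA than in CVST. By the same measure 5 of 7 cortical markers were lower. The part of these markers in the difference was not tested.

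*Tfpi*, whose product blocks the complex of tissue factor with factor VIIa, had 4.38, 5.85 and 4.61 CPM in CVST, 7.11, 6.7 and 4.88 CPM in CVST+Ligation, and 6.83, 6.44 and 7.24 CPM in 4-PBA. The 3 values of 4-PBA lay close together and above every CVST value. The log2 fold change was 0.47 (SE 0.23, 95% interval -0.05 to 0.98, adjusted p = 0.373), and its unadjusted p was below 0.05 only with limma on FPKM and, in edgeR, without CVST 2 (log2 fold change 0.62, adjusted p = 0.337). Over the 9 libraries *Tfpi* had r = 0.82 with the astrocyte markers and r = 0.82 with the markers of veins and arteries. It had 0.74 with those of brain endothelial cells and of midbrain dopamine neurons, 0.73 with pericytes and smooth muscle and 0.72 with the thalamus. With meningeal fibroblasts it had 0.69, with oligodendrocytes 0.48 and with the cortex -0.68. The part of these markers in the *Tfpi* values was not tested.

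The ratio of *F3* to *Tfpi*, of trigger to inhibitor, was taken per length in each library. It was 19.9, 11.4 and 15.2 in CVST, 7.91, 10.1 and 14.6 in CVST+Ligation, and 7.45, 9.81 and 10.3 in 4-PBA. The transcript of the trigger was thus the more abundant one in all 9 libraries, and the 3 ratios of 4-PBA lay under the 3 of CVST. The ratio is made of the values already given for both genes and is not a separate observation.

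*Procr* and *Pros1* complete the protein C branch. *Procr*, the endothelial protein C receptor, had 0.722, 2.44 and 1.52 CPM in CVST, 0.744, 1.96 and 1.54 CPM in CVST+Ligation, and 0.759, 1.64 and 2.9 CPM in 4-PBA, from 14 to 76 reads. The lowest library of each group was near the same level, and the groups overlapped throughout. Its log2 fold change was -0.15 (SE 0.61) after ligation and 0.19 (SE 0.61) for 4-PBA against CVST, with adjusted p of 0.950 and 0.919. *Procr* had r = 0.91 with the blood myeloid markers, and 4-PBA 3, the library highest in both, had 35.4 FPKM of these markers.

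*Pros1*, protein S, is made by liver, endothelium and brain cells and also serves as a ligand of TAM receptors. It had 35.6, 39.4 and 24.2 CPM in CVST, 34.5, 29.5 and 27.9 CPM in CVST+Ligation, and 18.7, 28.7 and 52.6 CPM in 4-PBA. The 4-PBA group held both the lowest and the highest library of the 9, and the group means (33.0 ± 7.90, 30.6 ± 3.48 and 33.4 ± 17.4 CPM) were close. The log2 fold change of 4-PBA against CVST was 0.01 (95% interval -0.74 to 0.77, adjusted p = 0.991), and -0.48 without 4-PBA 3 (adjusted p = 0.430).

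**Figure D3:**
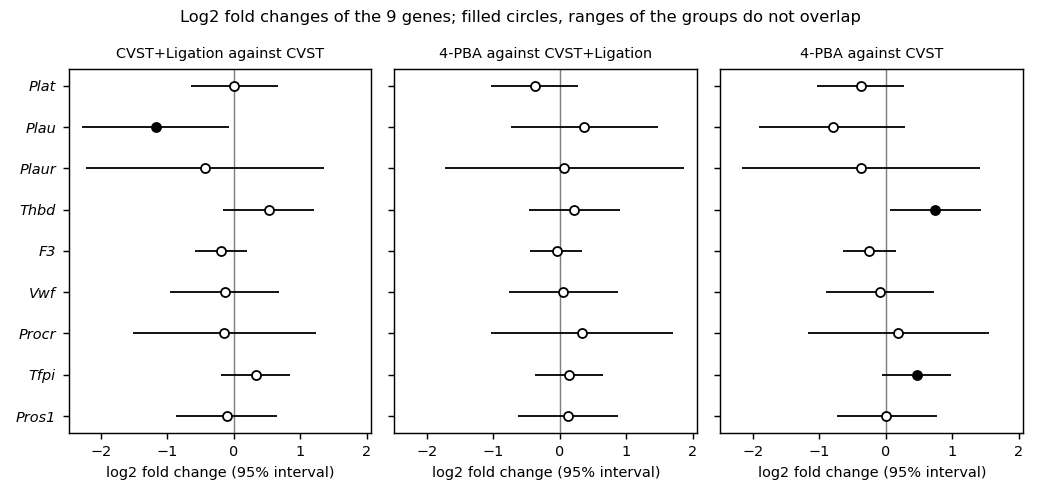
Log2 fold change with its 95% interval (edgeR) for each of the 9 genes in the 3 comparisons, with filled circles where the ranges of the groups did not overlap. Filled circles mark *Plau* at -1.17 after ligation and *Thbd* at 0.74 and *Tfpi* at 0.47 for 4-PBA against CVST, and the longest interval is that of *Plaur*.

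The spread between mice of a group was large for several of these genes. The within-group SD of log2 CPM was 1.23 for *Plaur*, at the 97.8th percentile of all tested genes, 0.81 for *Procr* (91.5th) and 0.68 for *Plau* (87th), where the median gene had 0.3. It was 0.21 for *Tfpi* (31.5th) and 0.22 for *F3* (33.8th). *Plaur* thus differed 13-fold between its lowest and highest library, both of which were 4-PBA libraries. The library 4-PBA 3 was the highest for 5 of the 9 genes and among the top 3 for 8, and 4-PBA 1 was the lowest for 4 and among the bottom 3 for 7, so that mice of the same treatment lay at opposite ends.

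Within this spread some genes moved together. Over the 9 libraries the log2 CPM of *Plau* and *F3* had a Pearson r of 0.904 (Spearman rho 0.883), *Plaur* and *F3* 0.901 (0.883) and *Plau* and *Plaur* 0.803 (0.867). For deviations from the group means the 3 values of r were 0.923, 0.903 and 0.886. *Tfpi* and *Plat* ran in opposite directions (r = -0.675), as did *Vwf* and *Plat* (r = -0.659). For deviations from the group means these values were -0.809 and -0.697. *Thbd* went with *Tfpi* over the 9 libraries (r = 0.702), but less so for deviations from the group means (r = 0.391). *Thbd* and *Vwf* had r = 0.565 over the 9 libraries and 0.82 for such deviations. These are descriptions over 9 libraries that share their depth and region content across genes, out of 36 pairs of the 9 genes.

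**Figure D4:**
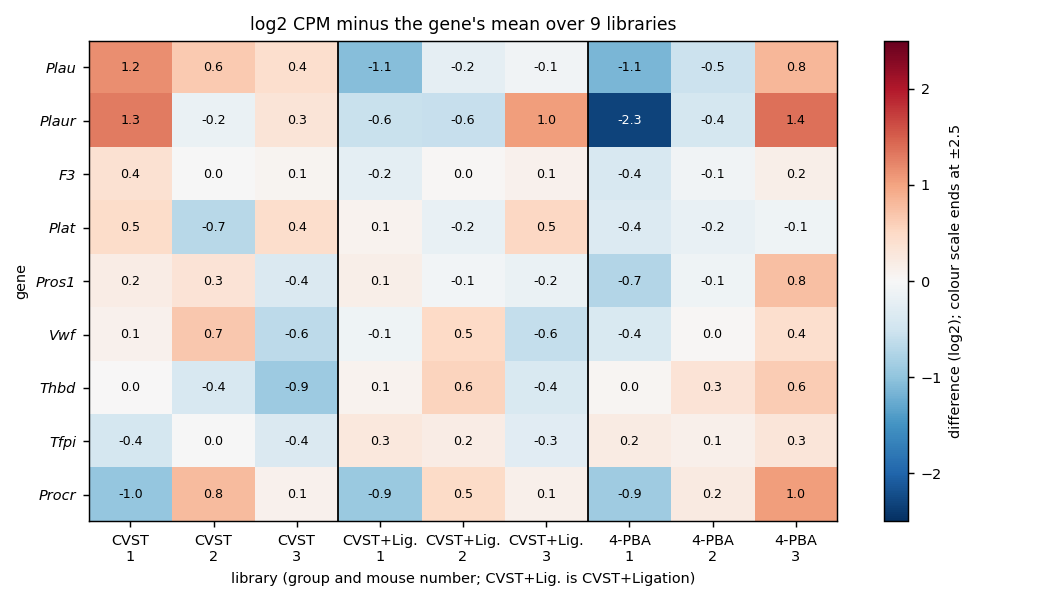
Difference of log2 CPM from the mean over 9 libraries for the 9 genes, by library, with red above and blue below the mean. *Plau*, *Plaur* and *F3* are all above their mean in CVST 1 and 4-PBA 3 and below it in 4-PBA 1.

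The promoters of *F3* and *Plaur*, genes of different chromosomes whose levels moved together, are shown with the AP-1 motif TGANTCA (N is any base) in capitals. AP-1 is the family of Fos and Jun factors, induced in many cells by injury and cytokines. RefSeq promoter windows (GRCm38.p6, 250 bases before to 50 after the annotated start, 5′ to 3′ on the gene's strand) were at hand for 5 of the 9 genes, and not for *Plat*, *Plau*, *Thbd* and *Vwf*.
F3, chr3:121723287-121723586, plus strand: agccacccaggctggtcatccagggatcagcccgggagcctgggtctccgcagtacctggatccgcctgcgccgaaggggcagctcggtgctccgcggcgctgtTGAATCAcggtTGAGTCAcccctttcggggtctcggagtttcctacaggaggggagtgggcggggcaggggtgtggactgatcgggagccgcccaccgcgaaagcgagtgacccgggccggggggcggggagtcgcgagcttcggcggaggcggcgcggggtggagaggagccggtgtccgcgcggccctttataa
Plaur, chr7:24462233-24462532, plus strand: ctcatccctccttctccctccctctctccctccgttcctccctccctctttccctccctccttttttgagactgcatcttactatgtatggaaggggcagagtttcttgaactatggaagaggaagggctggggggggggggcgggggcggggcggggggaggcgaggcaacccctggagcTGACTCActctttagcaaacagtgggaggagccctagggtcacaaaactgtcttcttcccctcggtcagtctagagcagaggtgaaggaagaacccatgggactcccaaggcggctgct
The motif occurs 2 times in the *F3* window, beginning 146 and 135 bases before the start, once in that of *Plaur*, 69 bases before the start, and once in that of *Procr*, 154 bases before it. It does not occur in the windows of *Tfpi* and *Pros1*. *Procr* had r = 0.282 with *F3* and 0.34 with *Plaur*, *Pros1* 0.528 and 0.662, and *Tfpi* -0.638 and -0.508. *F3* and *Plaur* were picked for their own r, and any link of the motif to the levels was not tested. Of all 32851 windows of this length, 7.81% hold the AP-1 motif on either strand. The SP1 motif GGGCGG occurs 3 times in each of the *F3* and *Plaur* windows and 5 times in that of *Pros1*. It occurs 1 time in each *Tfpi* window and not in that of *Procr*, and 35.7% of all windows hold it. In the *Plaur* window 2 of its 3 matches share a base, and none overlaps an AP-1 match. A match is a run of letters and no evidence of binding.

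The genes whose pattern over the 9 libraries was most like each of the 9 were looked up among all tested genes by Pearson r of log2 CPM. *Plaur* had *Socs3* (r = 0.970) and *Zfp593* (0.968), *Plau* had *S100a16* (0.972) and *Ticam1* (0.952), and *F3* had *Slc35f6* (0.953) and *Snx4* (0.945). *Socs3* is a feedback inhibitor of cytokine signalling. For *Tfpi* they were *Myof* (0.982) and *Anxa9* (0.981), for *Thbd* *Nectin4* (0.951) and *Trim25* (0.938), for *Vwf* *Mx2* (0.958) and *Thbs2* (0.953), and for *Procr* *Smpd5* (0.945) and *S100a9* (0.932), a calcium-binding protein of neutrophils. *Plat* was followed by *Kcnq1* (0.978) and *Pias2* (0.951) and *Pros1* by *Slc16a10* (0.962) and *Mybl2* (0.950). These are the top values among 14746 genes over 9 libraries and are given as a description.

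The 9 genes were set within a list of 60 further genes of clotting and fibrinolysis, of which 38 could be tested. Of the 22 others, 12 were plasma factors, among them prothrombin (*F2*), the fibrinogen chains *Fga*, *Fgb* and *Fgg* and the kininogens *Kng1* and *Kng2*, all of them made mainly in liver, and their highest count in any library was 33. Plasminogen itself (*Plg*) reached at most 2 reads, and *Tfpi2*, protein C (*Proc*) and antithrombin (*Serpinc1*) at most 24. The plasma cofactors *F5* (32 to 378 reads) and *F8* (11 to 46 reads) were among the genes tested. *F8* and the genes named here that could not be tested were named after their counts were seen.

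Among the inhibitors of plasminogen activators, protease nexin 1 (*Serpine2*, 269 FPKM over all libraries) and neuroserpin (*Serpini1*, 136 FPKM) were the most abundant, both above *Plat*. *Serpine2* had 224 to 275 CPM in CVST, 303 to 362 in CVST+Ligation and 379 to 404 in 4-PBA, 3 ranges without overlap. Its log2 fold change was 0.42 (SE 0.12, adjusted p = 0.343) after ligation and 0.67 (SE 0.12, adjusted p = 0.0545) for 4-PBA against CVST. The latter was 0.75 without CVST 3 (edgeR, adjusted p = 0.0344), the 1 adjusted p below 0.05 among the list's fits with a library left out. *Serpini1* had 172 to 242, 142 to 206 and 110 to 144 CPM, with a log2 fold change of -0.66 (SE 0.19, adjusted p = 0.143) for 4-PBA against CVST and -0.48 (SE 0.19, adjusted p = 1) against CVST+Ligation. Thrombospondin 1 (*Thbs1*) had 2.12, 3.55 and 1.3 CPM in CVST, 3.14, 9.43 and 2.59 CPM in CVST+Ligation, and 4.61, 4.71 and 17 CPM in 4-PBA. The 4-PBA libraries lay above those of CVST, with 4-PBA 3 far above the other 2. The log2 fold change was 1.91 (SE 0.68, adjusted p = 0.222), and 1 without 4-PBA 3 (adjusted p = 0.472).

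Of the thrombin receptors, *F2r* (PAR1) had lower values in CVST than in both other groups. It had 3.57, 3.02 and 2.93 CPM in CVST, 6.12, 8.09 and 6.73 CPM in CVST+Ligation, and 7.1, 7.78 and 9.75 CPM in 4-PBA. All 6 ligated mice lay above the 3 others, and the ligated groups overlapped. Ranges without overlap were found for 13.8% of all genes in CVST+Ligation against CVST and for 23.7% in 4-PBA against CVST. Markers of midbrain dopamine neurons split the libraries in the same way, at 11.7 to 12.5 FPKM in CVST and 105 to 154 in the ligated mice. So did thalamic markers, at 32.8 to 82.9 and 176 to 563 FPKM. The part of region content in the *F2r* values was not tested. The level was 2.19 times (95% interval 1.54 to 3.13) that of CVST in CVST+Ligation (adjusted p = 0.250) and 2.59 times (1.81 to 3.70) in 4-PBA (adjusted p = 0.0518). Per length *F2rl2* (PAR3) ran from 1.15 to 21.9 FPKM and *F2r* from 2.16 to 7.91 FPKM. *F2rl2* was the higher one in all 3 CVST libraries, and *F2r* in CVST+Ligation 1 and 2 and in 4-PBA 1 and 3.

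Among the platelet and anticoagulant genes, *Gp1bb*, a subunit of the platelet receptor for von Willebrand factor, had log2 fold changes of -0.79 after ligation and -0.86 for 4-PBA against CVST (adjusted p of 0.408 and 0.182). Of the other subunits, *Gp1ba* had -0.15 and -0.12 and *Gp5* 0.40 and -0.20 in the same comparisons (adjusted p of 0.773 to 0.938). *Gp9* reached at most 14 reads and platelet markers were low throughout. Which cells the *Gp1bb* reads came from was not tested. The protease that trims von Willebrand factor, *Adamts13*, had -2.27 for 4-PBA against CVST (SE 0.59, adjusted p = 0.122), and prostacyclin synthase (*Ptgis*) had -0.85 and -0.81 (adjusted p of 0.308 and 0.135). C1 inhibitor (*Serping1*) and heparin cofactor II (*Serpind1*) had 1.36 and 1.35 for 4-PBA against CVST (adjusted p of 0.272 and 0.317), although their ranges overlapped. *F5*, a cofactor of thrombin generation, had 2, 5.9 and 2.22 CPM in CVST, 1.65, 1.65 and 2.11 CPM in CVST+Ligation, and 20.5, 4.97 and 3.09 CPM in 4-PBA, with 4-PBA 1 far above the other 2. Its log2 fold change for 4-PBA against CVST+Ligation was 2.39 (adjusted p = 1), and 1.17 without 4-PBA 1 (adjusted p = 0.997). Choroid plexus markers summed to 7050, 1460 and 1010 FPKM in the same 3 libraries of 4-PBA, and to 186, 24.7 and 1860 FPKM in CVST+Ligation, and their part in the *F5* values was not tested. *F12*, which starts the contact pathway of clotting, rested on few reads, with 10, 7 and 12 in CVST, 2, 2 and 4 in CVST+Ligation and 10, 12 and 18 in 4-PBA. Its log2 fold change was -1.88 (95% interval -3.19 to -0.57, adjusted p = 0.369) after ligation and 2.21 (0.92 to 3.50, adjusted p = 1) for 4-PBA against CVST+Ligation.

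Counted over the list, 5 of the 38 tested genes had an unadjusted p below 0.05 in CVST+Ligation against CVST (2 higher, *Serpine2* and *F2r*, and 3 lower, *Ptgis*, *Gp1bb* and *F12*), 3 in 4-PBA against CVST+Ligation (2 higher, *F5* and *F12*, and 1 lower, *Serpini1*) and 9 in 4-PBA against CVST (5 higher and 4 lower). These are 13.2, 7.89 and 23.7% of the 38, beside the 9.64, 3.23 and 15.4% of all genes given above. With each library left out in turn, an alternative chosen after the data were seen, the counts were 5 to 7, 2 to 8 and 6 to 11. The 8 (21.1%) came without CVST+Ligation 2, where the background was 10%, and the 2 without CVST+Ligation 1, 4-PBA 2 or 4-PBA 3. For 4-PBA against CVST the share of the list lay between 15.8% without CVST 1 (background 11.8%) and 28.9% without CVST 2 (background 14.2%). After adjustment 0 of 38 passed in any comparison with edgeR on all 9 libraries. The median log2 fold changes of the list were -0.03, 0.16 and 0.12. The most abundant genes of the other roles, enolase 1 (*Eno1*, 952 FPKM), *S100a10* (281 FPKM), *Gas6* (75.6 FPKM), the cargo receptor *Mcfd2* (76.2 FPKM) and *Vkorc1l1* (28.1 FPKM), are genes that many cells express, and 0 of these 5 had an unadjusted p below 0.05.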

How the data were processed

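Total RNA of 9 brain samples was sequenced as paired reads. The authors filtered reads with fastp, aligned them with HISAT2, assembled transcripts with StringTie and quantified them with RSEM (versions, annotation and counting program not given in the sources used here, build mm10/GRCm38 per the labels). The authors deposited whole-number read counts for 20731 gene symbols without normalization, and a second matrix that the methods call TPM. Its deposited values are FPKM, since each equals the count divided by the library total and by 1 length per gene (lengths recovered for 17446 genes, 74.8% of them multiples of 3, so mostly coding length). Strand use in counting is not stated.

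Samples were grouped by their titles, 3 per group, and come from separate mice according to the methods. Counts were scaled by TMM, filtered with filterByExpr (14746 genes kept) and fitted with edgeR 4.0.16 (quasi-likelihood, 3 groups, no covariates, R 4.3.3). P-values were adjusted by Benjamini-Hochberg over all genes tested. An exact permutation test of 3 against 3 samples cannot go below 0.1, so none was run. Alternatives were DESeq2 1.42.0, its size factors or total counts for scaling, other filters (genes with at least 1 count, or with at least 10 in every library), only the 2 groups compared, limma 3.58.1 on log2(FPKM + 1) and log2(FPKM + 0.1), the replicate number as a block, and each library left out. Intervals are 95% and, with the floor of 3 counts, say nothing of differences in dissection. Plots were drawn with matplotlib 3.10.9.

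1 gene of the wider list enters the counts, but its own values are not reported here. Named are the 9 genes, genes of a list of 69 clotting and fibrinolysis genes with an unadjusted p below 0.05 or, in each role, the 2 highest mean FPKM, and the 2 genes closest to each of the 9 by r, beside some that could not be tested. *F8*, *Gp1ba* and *Gp5* were named after their values were seen. Members, lists and tests were chosen with earlier results of these data known.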

Additional observations from a re-analysis of the deposited data

How the results depend on the processing

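Among the 9 genes, those below 0.05 by unadjusted p numbered 1 after ligation, 0 for 4-PBA against CVST+Ligation, 1 for 4-PBA against CVST and 0 over the 3 groups. These 4 numbers were unchanged with DESeq2, DESeq2's size factors, total counts and the other filters. The 3 pairwise numbers were unchanged in fits of 2 groups, and limma with either pseudocount gave 2 for 4-PBA against CVST (*Thbd* and *Tfpi*). With 1 library left out they ranged from 0 to 2 after ligation, 0 to 2 for 4-PBA against CVST and 0 to 1 over the groups, and no alternative gave an adjusted p below 0.05 for any of the 9. Of all genes, 476 were below 0.05 for 4-PBA against CVST+Ligation, 1497 without CVST+Ligation 2 and 256 without 4-PBA 2. With the replicate block these counts were again 1, 0, 1 and 0. Deviations from group means correlated at -0.05 to 0.32 for samples with the same number, and at -0.36 to 0.13 for samples with different numbers. With 3 samples a group these values cannot show whether the number marks a batch or a pairing. Of the refitted fold changes of single genes, 353 kept direction and side of the threshold, 36 changed sign, 8 lost and 8 gained an unadjusted p below 0.05, and the cause was not tested. Every change of sign was in an estimate without a call. For 4-PBA against CVST+Ligation *Plaur* was -0.08 with the block, and -0.17 and -0.36 in limma with pseudocounts 1 and 0.1. For 4-PBA against CVST the same 3 alternatives gave 0.02, 0.04 and 0.05 for *Vwf* and -0.04, -0.01 and -0.01 for *Pros1*. With 1 library left out, the log2 fold changes after ligation ranged from -0.29 to 0.18 for *Plat*, -1.18 to 0.08 for *Plaur*, -0.48 to 0.23 for *Vwf*, -0.5 to 0.34 for *Procr* and -0.31 to 0.04 for *Pros1*. Those of 4-PBA against CVST+Ligation ranged from -0.4 to 0.73 for *Plau*, -1.26 to 0.81 for *Plaur*, -0.19 to 0.1 for *F3*, -0.17 to 0.4 for *Vwf*, -0.22 to 0.71 for *Procr*, -0.02 to 0.26 for *Tfpi* and -0.37 to 0.43 for *Pros1*. Those of 4-PBA against CVST ranged from -1.7 to 0.16 for *Plaur*, -0.37 to 0.3 for *Vwf*, -0.37 to 0.69 for *Procr* and -0.48 to 0.32 for *Pros1*. Without 4-PBA 3 the log2 fold change of *Plau* for 4-PBA against CVST was -1.57 (edgeR, adjusted p = 0.121). Depth limits *Procr*, with 14 to 76 reads a library.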
